A study of Mus musculus with 12 samples.

Results

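The comparison described here is the effect of a sciatic nerve crush on the RNA of the whole dorsal root ganglion (DRG) of the mouse. It uses the 3 libraries labelled input injury and the 3 labelled input naive, chosen by label alone, which are 6 of the 12 libraries of the study. All mice carried Adv-Cre, a Cre recombinase under the advillin promoter that is active in sensory neurons, together with the Ribotag allele, which after recombination gives the ribosomal protein Rpl22 an HA tag. 1 sciatic nerve of each mouse was crushed, and lumbar L4 to L6 ganglia were taken 3 days later, injured and naive ganglia from each animal. Each library held ganglia of 4 mice, so a replicate is a pool and the animal-to-animal spread cannot be seen. Input RNA was total RNA taken before the tagged ribosomes were immunoprecipitated (IP), and the other 6 libraries were IP naive and IP injured. Both input groups carried the same alleles, and the labels name no animal without Cre, without the tag or with a sham operation.

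A DRG holds the cell bodies of sensory neurons, each wrapped in satellite glia, among Schwann cells, macrophages, fibroblasts and vessels. Crushing the sciatic nerve cuts the peripheral axons of many lumbar sensory neurons but leaves the nerve sheath in place, and peripheral axons, unlike central ones, can grow back. The regrowth is accompanied by a change of programme in the cell body, known from rodents, in which transcription factors of the ATF and AP-1 families, cytoskeletal growth genes and neuropeptides come on while ion channels and transmitter genes of the mature neuron go down. Input RNA comes from all cells of the ganglion, so fewer cells of a type and less RNA per cell cannot be told apart.

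The libraries were made with QuantSeq REV, which primes on poly(A) and is meant to read the end of the transcript. Here 1 read was taken as 1 transcript end, so that a level should not depend on transcript length. Whether each site is a true transcript end was not tested. The deposited table holds whole-number counts at 178431 usable intervals, mostly 25 bases wide and here called sites. Totals were 10045178, 14053174 and 12610260 counts in the naive and 10412956, 13656228 and 13839648 counts in the injured libraries, so depth did not separate the groups. Sites were tied to GRCm38 genes by position and strand. Those outside repeats, and those in repeats at the annotated end of a gene, were summed per gene. Levels are given in CPM, the usual depth-scaled count, here relative to the counts in genes and adjusted by edgeR's TMM factors. No 2 libraries of a group agreed within sampling noise, and the naive libraries held the neuronal and satellite glial markers that a ganglion should have, pan-neuronal genes summing to 23486 to 24458 CPM and satellite glia markers to 5012 to 5144 CPM. No counts were tied to some defining genes, among them Gfap, Trpv1, Aif1 and Cd68, which are not analysed here.

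After crush, 103 genes rose and 32 fell in whole-ganglion RNA at an adjusted p under 0.05 (edgeR's quasi-likelihood test with Benjamini-Hochberg adjustment over 11625 genes). The 135 calls are 1.16% of the genes tested, the rises 0.886% and the falls 0.275%. All 135 called genes are protein coding, and in all of them the 3 injured libraries lay on 1 side of the 3 naive ones, which was the case for 14.9% of all genes tested. The called rises were larger than the called falls: 79 of the 103 rises were over 2-fold and 35 over 4-fold, against 11 and 1 of the 32 falls. The median fold was 2.65 for the rises and 1.84 for the falls, and the median log2 change of all tested genes was 0.00. The genes that rose took 2.19, 2.18 and 2.25% of the counts in tested genes in the naive libraries and 4.40, 4.34 and 4.74% in the injured libraries, so their combined share about doubled. The genes that fell took 1.23, 1.23 and 1.18% in the naive and 0.778, 0.815 and 0.768% in the injured libraries. These 4 sets of shares follow from which genes were called and carry no test. Of the calls, 71 rises and 7 falls were kept in all 6 fits that each left out 1 library, and calls lost in these fits are given beside the genes named. The spread was estimated over all 12 libraries, with no term for the material that input and IP libraries share. A fit of the 6 input libraries alone called 72 rises and 6 falls, and calls lost there are not marked beside the genes.

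**Figure D1:**
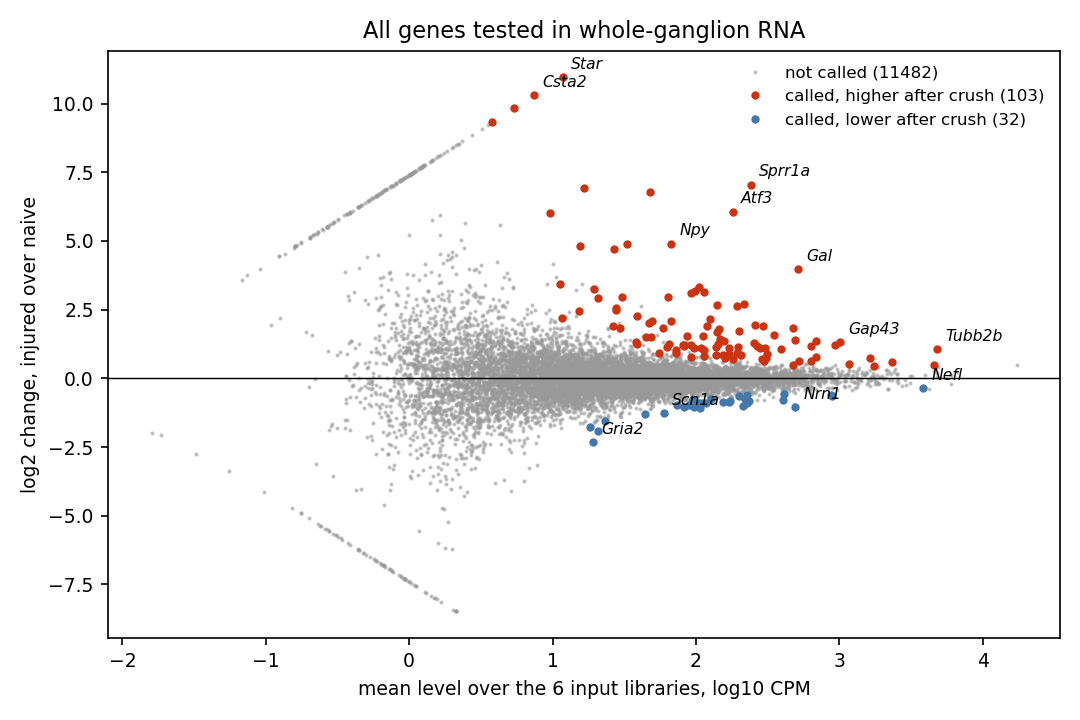
Log2 change after crush (vertical axis) against mean level over the 6 input libraries (horizontal axis, log10 CPM) for the genes tested, 1 point a gene; 8 genes with 0 counts in all 6 libraries are not drawn. The 103 called rises (red) reach log2 changes far beyond those of the 32 called falls (blue), and the highest points at the left, such as Star and Csta2, are genes with 0 counts in the naive libraries, whose fitted change has no upper limit.

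Among injury-response transcription factors, 4 of the 26 listed and tested genes rose and none fell. The median log2 change of the list was 0.32, and 8 of its members had groups that did not overlap. Over all genes tested, 1.16% were called and 14.9% had groups that did not overlap. Those are the shares to set beside this list and each later one. Atf3, a stress-induced factor of the ATF/CREB family that is the standard marker of axotomised sensory neurons (chromosome 1, 191170296 to 191183333, minus strand), measured 5.98, 6.43 and 3.43 CPM in the naive libraries and 385, 377 and 303 CPM in the injured libraries. Every injured library was far above every naive one, a log2 change of 6.07 ± 0.33 (SE) with an adjusted p of 1.4e-09 in edgeR, or 67.1-fold. All Atf3 counts came from 1 site, 28 bases before the annotated end of the gene at chr1:191170312-191170337. Sox11, an SRY-box factor known from rodents to promote axon growth, stood at 59, 76.3 and 36.3 CPM in naive and 426, 369 and 326 CPM in injured libraries, and the groups were far apart. Sox11 rose by 2.71 ± 0.24 on the log2 scale (edgeR adjusted p = 9.23e-07). Its counts were spread over 10 sites, the largest of which, 2121 bases before the annotated end, held 25.5% of them. Jun, an AP-1 subunit that pairs with ATF3, was already plentiful at 178, 184 and 174 CPM and reached 402, 424 and 324 CPM, a 2.14-fold rise. Jun rose by 1.10 ± 0.15 on the log2 scale (edgeR adjusted p = 0.000116). Smad1, the factor that carries BMP signals to the nucleus, went from 70.7, 60.8 and 52 to 150.1, 117 and 128 CPM. Smad1 rose by 1.11 ± 0.19 on the log2 scale (edgeR adjusted p = 0.00239). Fos, Myc and Atf4 did not pass the test, with Fos at a log2 change of -0.19 (adjusted p = 0.986) and Myc at 1.66 (adjusted p = 0.734). Atf4 measured 220.4, 209 and 251 CPM in naive and 300.0, 361 and 318 CPM in injured libraries, without overlap (log2 0.53, adjusted p = 0.344). No counts were tied to Stat3, Klf7 or Rest, among others.

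Genes of axon growth and the cytoskeleton formed the list with the most calls: 15 of 35 tested members rose, none fell, the median log2 change was 0.44 and 26 members had groups that did not overlap. The 35 genes together summed to 51405 to 57393 CPM in the naive and 69370.3 to 80522 CPM in the injured libraries. Sprr1a, a small proline-rich protein that is induced after axotomy and promotes neurite growth in rodents (chromosome 3, 92483954 to 92485881, minus strand), measured 0, 9.35 and 0.775 CPM in the naive libraries and 403, 426 and 609.9 CPM in the injured libraries. It was near 0 in naive ganglia, highest there in library 2, and rose 132-fold. Sprr1a rose by 7.05 ± 0.77 on the log2 scale (edgeR adjusted p = 1.14e-05). Without naive library 2 the log2 change was 10.12 (adjusted p = 5.97e-07). Gap43, the growth-cone protein that is a substrate of protein kinase C (chromosome 16, 42248552 to 42340651, minus strand), measured 605, 576 and 560.4 CPM in the naive libraries and 1264, 1581 and 1489.6 CPM in the injured libraries, with a wide gap between the groups. Gap43 rose by 1.32 ± 0.11 on the log2 scale (edgeR adjusted p = 4.98e-07). Tubb6, a class V beta-tubulin, stood at 7.58, 0.292 and 6.98 CPM in naive and 34.6, 33.7 and 42.4 CPM in injured libraries. Tubb6 rose by 2.91 ± 0.61 on the log2 scale (edgeR adjusted p = 0.0165). Stmn4, a neuronal microtubule-destabilising stathmin, was at 22.2, 23.9 and 11.7 CPM in naive and 169.9, 125 and 206 CPM in injured libraries. Stmn4 rose by 3.11 ± 0.29 on the log2 scale (edgeR adjusted p = 1.4e-06). Flrt3, an adhesion receptor of the FLRT family, was at 36.7, 77.5 and 47 CPM in naive and 329, 415 and 251 CPM in injured libraries, and every injured library was above the naive ones. Flrt3 rose by 2.62 ± 0.34 on the log2 scale (edgeR adjusted p = 9.6e-05).

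The following members of that list were chosen after their values were seen. Among them, Tubb2b, Tubb2a and Tuba1a had higher levels than the members named above and moved less in fold. Tubb2b, a beta-tubulin of growing neurons, measured 3187, 2960.0 and 3113 CPM in the naive libraries and 7285, 5635 and 6438 CPM in the injured libraries. Tubb2b rose by 1.06 ± 0.12 on the log2 scale (edgeR adjusted p = 1.93e-05). Its near-copy Tubb2a was at 1752, 1809 and 1955 CPM in naive and 2822, 2743 and 2830.3 CPM in injured libraries. Tubb2a rose by 0.61 ± 0.09 on the log2 scale (edgeR adjusted p = 0.000409). The coding parts of these 2 genes are nearly alike, and how reads with several alignments were counted is not given in the sources used here, so the split between them is uncertain. Tuba1c, an alpha-tubulin, rose from 62.7, 75.2 and 56.8 to 224, 187 and 270.0 CPM. Tuba1c rose by 1.81 ± 0.20 on the log2 scale (edgeR adjusted p = 1.87e-05). Tuba1a, another alpha-tubulin and the member with the most counts, measured 14056, 13481 and 15701 CPM in naive and 20283, 17995 and 21758 CPM in injured libraries, and its groups did not overlap but its change did not pass the test (log2 0.47, adjusted p = 0.19). Tubb3, the neuronal class III beta-tubulin, was called at a log2 change of 0.50 (adjusted p = 0.012), a call lost without naive library 2 (adjusted p = 0.0966) or injured library 3 (0.0522). Stmn2, the stathmin of axon maintenance, was called at 0.44 (adjusted p = 0.022), a call lost without naive library 1 (adjusted p = 0.106), naive library 2 (0.063), naive library 3 (0.093), injured library 1 (0.0783) or injured library 2 (0.0877). Marcks, a kinase substrate that binds actin and the membrane, was called at 0.64 (adjusted p = 0.0148) and lost without naive library 1 (adjusted p = 0.0788), naive library 2 (0.0676) or injured library 2 (0.0678). Crmp1, a microtubule-binding mediator of semaphorin signals, was called at 0.74 (adjusted p = 0.0295) and lost without naive library 1 (adjusted p = 0.17), naive library 2 (0.112), injured library 1 (0.0914) or injured library 3 (0.0897).

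**Figure D2:**
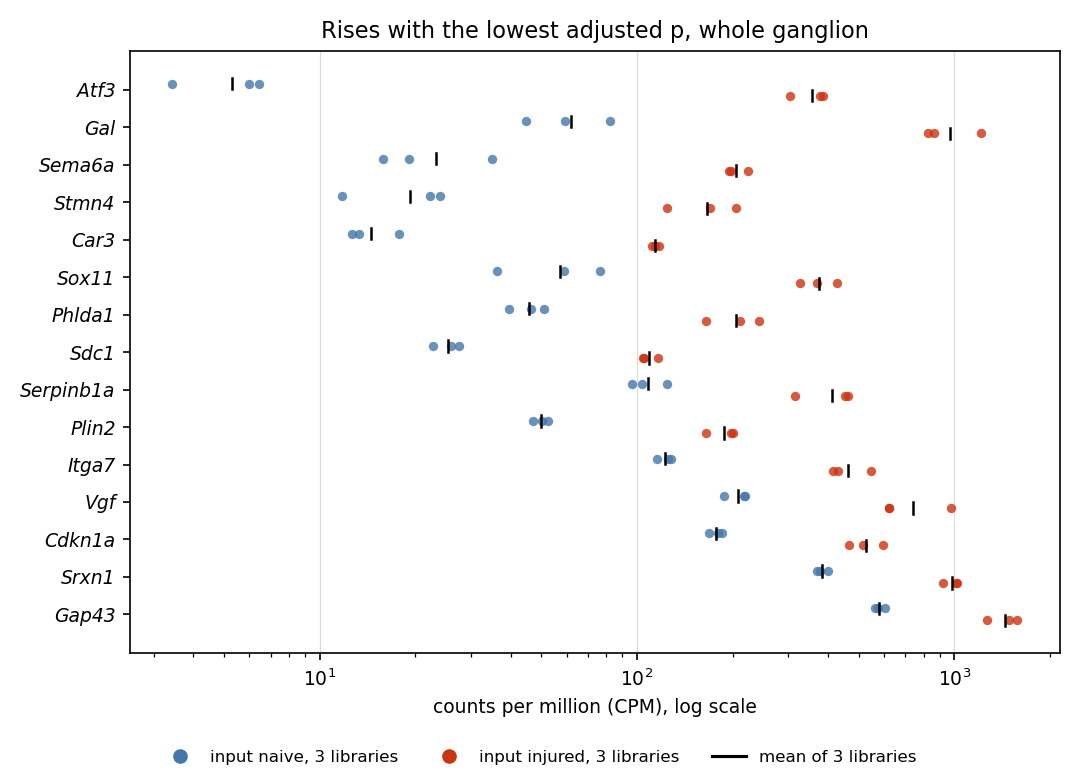
Level of each of the 15 rises with the lowest adjusted p in every input library (horizontal axis, CPM on a log scale), with 3 naive (blue) and 3 injured (red) libraries a gene and the mean of each group as a black bar. The red and blue points do not overlap in any of the 15 genes, from Atf3 with 3.43 to 6.43 CPM in naive libraries to Gap43 with 560.4 to 605 CPM.

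Of 15 tested neuropeptide genes 4 rose and 1 fell, with a median log2 change of -0.15 and 8 members without overlap. Gal, the precursor of galanin (chromosome 19, 3409915 to 3414544, minus strand), measured 59.1, 82.3 and 44.6 CPM in the naive libraries and 828, 863 and 1213 CPM in the injured libraries. Injured library 3 was the highest and the groups were widely apart, a 15.6-fold rise. Gal rose by 3.96 ± 0.28 on the log2 scale (edgeR adjusted p = 8.7e-08). Npy, neuropeptide Y, was nearly silent in naive ganglia at 0.797, 10.7 and 1.11 CPM, highest in library 2, and reached 100.3, 142 and 149 CPM. Npy rose by 4.90 ± 0.59 on the log2 scale (edgeR adjusted p = 4.26e-05). Nts, neurotensin, was at 10.4, 35.4 and 12.6 CPM in naive and 175, 228 and 132 CPM in injured libraries, lowest after crush in library 3 and still above every naive value. Nts rose by 3.18 ± 0.37 on the log2 scale (edgeR adjusted p = 2.49e-05). Vgf, a granin-related precursor of several secreted peptides, measured 188, 219 and 217 CPM in the naive libraries and 622, 624 and 974 CPM in the injured libraries and rose 3.56-fold. Vgf rose by 1.83 ± 0.16 on the log2 scale (edgeR adjusted p = 8.25e-07). Nmb, neuromedin B, a bombesin-like peptide of small sensory neurons, fell from 931, 1083 and 1143 to 622, 694 and 743 CPM. Nmb fell by 0.62 ± 0.12 on the log2 scale (edgeR adjusted p = 0.00814), a call lost without injured library 1 (adjusted p = 0.0741). The peptides of peptidergic nociceptors did not pass the test: Calca, the precursor of CGRP, had a log2 change of -0.16 (adjusted p = 0.747) and Tac1, that of substance P, -0.40 (adjusted p = 0.207).

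3 of 13 tested peptide and opioid receptors rose and none fell, with a median log2 change of 0.04 and 5 members without overlap. Gpr151, an orphan G-protein-coupled receptor, had 0, 2.34 and 0 CPM in the naive libraries and 106, 89.1 and 90.9 CPM in the injured libraries, a log2 change of 6.78 ± 0.90 (SE) with an adjusted p of 0.000122 in edgeR. Cckbr, the cholecystokinin B receptor, also had counts in naive library 2 alone of its group, with 0, 3.02 and 0 CPM in naive and 25.2, 30.8 and 34.9 CPM in injured libraries. Cckbr rose by 4.82 ± 0.94 on the log2 scale (edgeR adjusted p = 0.00814). Cckar, the cholecystokinin A receptor, was expressed in all naive libraries and went from 92.4, 90.8 and 76 to 189, 198 and 182 CPM. Cckar rose by 1.13 ± 0.18 on the log2 scale (edgeR adjusted p = 0.000772). Naive library 2 was the highest of its group in Sprr1a, Npy, Gal, Nts, Gpr151 and Cckbr, and all 6 genes were called in each of the 6 fits without 1 library. It was also the highest in other rises, among them Atf3, Sox11, Flrt3, Sema6a, Gadd45a, Ecel1 and Slc6a4. In Gap43, Smad1, Tubb6, Cdkn1a and Car3 it was not. Without naive library 2, the log2 changes of Npy and Nts were 7.07 (adjusted p = 1.94e-08) and 3.96 (adjusted p = 6.16e-07). Gpr151 and Cckbr then had 0 naive counts and were at least 522-fold and at least 169-fold higher, against a floor of 3 counts over the naive libraries left.

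Secreted factors and guidance molecules gave fewer calls. Of 24 tested cytokines, growth factors and gp130 signalling genes 2 rose and none fell (median log2 change 0.19, 6 without overlap). Csf1, the macrophage colony-stimulating factor that axotomised sensory neurons are known to release in rodents, measured 12.5, 14.4 and 12.6 CPM in the naive libraries and 66.1, 45.6 and 80.5 CPM in the injured libraries and rose 4.85-fold. Csf1 rose by 2.28 ± 0.30 on the log2 scale (edgeR adjusted p = 0.000114). Fst, follistatin, a secreted protein that binds activins, was at 3.32, 4.38 and 3.43 CPM in naive and 19.4, 47.9 and 38.3 CPM in injured libraries, lowest after crush in library 1 and without overlap. Fst rose by 3.24 ± 0.40 on the log2 scale (edgeR adjusted p = 4.77e-05). Of 28 tested axon guidance genes 1 rose and 1 fell (median -0.01, 5 without overlap, against 14.9% of all genes tested). Sema6a, a transmembrane semaphorin, measured 15.8, 35 and 19.2 CPM in the naive libraries and 195, 224 and 197 CPM in the injured libraries. Sema6a rose by 3.13 ± 0.25 on the log2 scale (edgeR adjusted p = 2.65e-07). Sema7a, a membrane-anchored semaphorin, fell from 133, 87.6 and 116 to 63.8, 44.4 and 54.4 CPM. Sema7a fell by 1.05 ± 0.25 on the log2 scale (edgeR adjusted p = 0.0391), but the call was lost without naive library 1 (adjusted p = 0.198), naive library 3 (0.0952), injured library 1 (0.0598), injured library 2 (0.162) or injured library 3 (0.0969). Gfra3, the artemin receptor of nociceptors, rose from 33.2, 53.6 and 32.6 to 79.6, 72.4 and 108 CPM. Gfra3 rose by 1.12 ± 0.24 on the log2 scale (edgeR adjusted p = 0.021) and lost the call without naive library 1 (adjusted p = 0.116), naive library 3 (0.0948) or injured library 3 (0.107).

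In a list headed targets of ATF4 and p53, the stress and DNA-damage programmes, 3 of 27 tested genes rose and none fell (median log2 change 0.39, 8 without overlap). Cdkn1a, the cell-cycle inhibitor p21 (chromosome 17, 29090979 to 29100722, plus strand), measured 185, 180.0 and 169 CPM in the naive libraries and 515, 465 and 597 CPM in the injured libraries, a 2.96-fold rise with little spread within either group. Cdkn1a rose by 1.57 ± 0.13 on the log2 scale (edgeR adjusted p = 4.98e-07). Gadd45a, a stress sensor of growth arrest, was at 21.5, 52.4 and 41 CPM in naive and 221, 331 and 180.1 CPM in injured libraries. Gadd45a rose by 2.67 ± 0.32 on the log2 scale (edgeR adjusted p = 3.61e-05). Ecel1, a membrane metalloprotease induced in injured neurons, had 1.59, 4.19 and 0 CPM in naive and 57.4, 53 and 45.2 CPM in injured libraries. Ecel1 counts here as a member of the list, and nothing in these data shows it to be a target of ATF4 or p53. Ecel1 rose by 4.71 ± 0.90 on the log2 scale (edgeR adjusted p = 0.00707). Without naive library 2 its log2 change was 6.09 (adjusted p = 0.00483). Srxn1, sulfiredoxin, which repairs over-oxidised peroxiredoxins (chromosome 2, 152105524 to 152111376, plus strand), lies outside that list and measured 369.8, 400.1 and 377 CPM in the naive libraries and 920.2, 1012 and 1016 CPM in the injured libraries. The groups were narrow and apart, and the 2.57-fold rise had one of the lowest adjusted p of all genes. Srxn1 rose by 1.36 ± 0.11 on the log2 scale (edgeR adjusted p = 2.65e-07). Hspb1, the small heat-shock protein Hsp27, chosen after its values were seen, went from 525, 556 and 611 to 1131, 1189.5 and 1552 CPM. Hspb1 rose by 1.19 ± 0.14 on the log2 scale (edgeR adjusted p = 2.49e-05).

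Besides Srxn1, 6 of the 15 rises with the lowest adjusted p belong to none of these lists. Car3, carbonic anhydrase 3, measured 13.3, 12.7 and 17.7 CPM in the naive libraries and 117, 111 and 114 CPM in the injured libraries. Car3 rose by 2.97 ± 0.25 on the log2 scale (edgeR adjusted p = 4.98e-07). Plin2, the coat protein of lipid droplets, was at 50.1, 46.9 and 52.6 CPM in naive and 165, 201 and 198 CPM in injured libraries. Plin2 rose by 1.91 ± 0.17 on the log2 scale (edgeR adjusted p = 9.05e-07), and all its counts came from 1 site that lies 29811 bases before the annotated gene end. Sdc1, the heparan sulfate proteoglycan syndecan-1, went from 27.4, 25.9 and 22.8 to 106, 105 and 117 CPM. Sdc1 rose by 2.10 ± 0.21 on the log2 scale (edgeR adjusted p = 2.69e-06). Itga7, the alpha-7 chain of a laminin-binding integrin, was at 128, 125 and 116 CPM in naive and 429, 416 and 545 CPM in injured libraries. Itga7 rose by 1.91 ± 0.19 on the log2 scale (edgeR adjusted p = 2.69e-06). Phlda1, a pleckstrin-homology-like domain protein, was at 39.5, 46.4 and 50.8 CPM in naive and 165, 242 and 211 CPM in injured libraries. Phlda1 rose by 2.17 ± 0.22 on the log2 scale (edgeR adjusted p = 3.84e-06). Serpinb1a, an inhibitor of neutrophil serine proteases, was at 104, 96.3 and 125 CPM in naive and 316, 454 and 462 CPM in injured libraries. Serpinb1a rose by 1.92 ± 0.20 on the log2 scale (edgeR adjusted p = 7.19e-06). In each of these 6 genes the lowest injured library was above the highest naive one, and each call was kept in all 6 fits without 1 library. Of 23 tested cholesterol and fatty acid synthesis genes 1 rose and none fell (median 0.12, 3 without overlap, against 14.9% of all genes tested). That gene, the sterol-synthesis enzyme Hsd17b7, was at 154, 214 and 78.5 CPM in naive and 390.1, 419 and 276 CPM in injured libraries. Hsd17b7 rose by 1.28 ± 0.26 on the log2 scale (edgeR adjusted p = 0.0104), a call lost without injured library 2 (adjusted p = 0.0549). Cacna2d1, the calcium-channel subunit bound by gabapentin, was at 133, 145 and 93.1 CPM in naive and 349, 274 and 187 CPM in injured libraries. Cacna2d1 rose by 1.13 ± 0.21 on the log2 scale (edgeR adjusted p = 0.00472).

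4 of the rises had 0 counts in all naive libraries, so that only a lower limit of their fold can be given, set by a floor of 3 counts over the 3 naive libraries. Star, the protein that carries cholesterol into mitochondria for steroid synthesis (chromosome 8, 25808474 to 25815982, plus strand), reached 22.1, 22.5 and 25.9 CPM, at least 211-fold higher (edgeR adjusted p = 0.000148). Csta2, a cystatin of the stefin A family that inhibits cysteine proteases (chromosome 16, 36221562 to 36257447, plus strand), reached 6.24, 21.7 and 16.9 CPM, at least 139-fold higher (adjusted p = 0.00038). Both were detected in all 3 injured libraries, Csta2 with a wide spread between them. Acvr1c, the activin receptor ALK7, reached 11.8, 20.3 and 0.441 CPM, nearly all of it in libraries 1 and 2, at least 97.5-fold higher (adjusted p = 0.0186). The Acvr1c call was lost without naive library 1 (adjusted p = 0.0665), naive library 2 (0.0643), naive library 3 (0.0528), injured library 1 (0.0528) or injured library 2 (0.102). 1700003F12Rik, a gene with no role given here, reached 10.2, 6.16 and 6.51 CPM, at least 66.4-fold higher (adjusted p = 0.0344), a call lost without naive library 1 (adjusted p = 0.115), naive library 2 (0.114), naive library 3 (0.0979), injured library 1 (0.0694) or injured library 2 (0.0543). Slc6a4, the serotonin transporter, had 0.133, 0.584 and 0 CPM in naive and 20.6, 31.4 and 46 CPM in injured libraries. Slc6a4 rose by 6.94 ± 0.99 on the log2 scale (edgeR adjusted p = 0.00027). Without naive library 2, 1 naive count of Slc6a4 was left, a ratio of 554 with a 95% counting interval of 99.2 to 21900. With 1 naive library fewer the floor lies higher, and without naive library 2 the bounds were 130-fold for Star, 86.0-fold for Csta2, 60.2-fold for Acvr1c and 41.0-fold for 1700003F12Rik. Without naive library 3 they were 140-fold, 92.5-fold, 64.7-fold and 44.1-fold, in the same order. The bound for Acvr1c was 49.5-fold without injured library 2 and 148-fold without injured library 3. For 41 of the 135 called genes the strand was read from the counts because the RefSeq promoter table, which gave the strand of the others, did not hold them, among them Star, Gap43, Tubb2b, Sema6a, Stmn4, Car3, Vgf, Itga7, Phlda1, Serpinb1a, Fst, Tubb6, Gpr151, Cckar, Gfra3, Stmn2, Marcks, Nefl, Nrn1, Htr3a, Hapln4 and Scx.

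The genes that fell had a median of 157 CPM in naive ganglia, those that rose 57.0 CPM and all tested genes 22.5 CPM. The naive values also entered the calls, so the order of falls and rises follows in part from the sorting and carries no test. Of 25 tested voltage-gated sodium and calcium channel genes 2 fell and 1 rose, only 2 were higher after crush, the median log2 change was -0.54 and 8 had groups that did not overlap. Scn1a, the alpha subunit of Nav1.1 (chromosome 2, 66270781 to 66440837, minus strand), measured 84.9, 97 and 70.8 CPM in the naive libraries and 38.7, 34.4 and 31.3 CPM in the injured libraries and fell to less than its lowest naive level in every injured library. Scn1a fell by 1.28 ± 0.22 on the log2 scale (edgeR adjusted p = 0.00247). Scn10a, the nociceptor sodium channel Nav1.8, fell from 427, 519.8 and 542 to 382, 316 and 297 CPM. Scn10a fell by 0.58 ± 0.14 on the log2 scale (edgeR adjusted p = 0.0426), a call lost without naive library 2 (adjusted p = 0.159), naive library 3 (0.146), injured library 2 (0.15) or injured library 3 (0.149). Scn9a, the channel Nav1.7, had a log2 change of -0.58 (adjusted p = 0.343) and Scn11a, the channel Nav1.9, -0.47 (adjusted p = 0.274). The 29 tested potassium channel genes had a median log2 change of -0.34, and 10 had groups that did not overlap. The summed level of the sodium and calcium channels was 2823 to 3004 CPM in the naive and 2099.8 to 2505 CPM in the injured libraries, and that of the potassium channels 2498 to 2889 CPM in the naive and 1927 to 2123 CPM in the injured libraries.

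Transcription factors that set sensory neuron identity gave 3 falls and no rise among 19 tested genes, with a median log2 change of -0.43 and 6 without overlap. Their summed level was 1715 to 1855 CPM in the naive and 1246 to 1363 CPM in the injured libraries. Etv1, an ETS factor that proprioceptive neurons need (chromosome 12, 38780082 to 38870483, plus strand), measured 317, 295 and 237 CPM in the naive libraries and 139, 165 and 115 CPM in the injured libraries, without overlap. Etv1 fell by 1.02 ± 0.17 on the log2 scale (edgeR adjusted p = 0.0016). Runx1, the Runt factor of nonpeptidergic nociceptors, had narrow groups, 123, 120.0 and 117 against 67.7, 72.3 and 72.6 CPM. Runx1 fell by 0.76 ± 0.17 on the log2 scale (edgeR adjusted p = 0.0224), but the call was lost without naive library 1 (adjusted p = 0.0857), naive library 2 (0.0676), injured library 1 (0.109) or injured library 2 (0.0598). Isl2, a LIM-homeodomain factor, went from 264, 247 and 309 to 168, 129 and 192 CPM. Isl2 fell by 0.75 ± 0.17 on the log2 scale (edgeR adjusted p = 0.0377) and lost the call without naive library 1 (adjusted p = 0.086), naive library 3 (0.138), injured library 1 (0.108) or injured library 2 (0.175). Isl1 and Pou4f1, the general sensory neuron factors, did not pass the test, with log2 changes of -0.57 (adjusted p = 0.19) and -0.52 (adjusted p = 0.254). Of 29 nociceptor and transduction genes 1 rose, Gfra3, and 1 fell (median -0.21, 9 without overlap). Htr3a, a subunit of the serotonin-gated 5-HT3 channel, was at 169, 113 and 146 CPM in naive and 98.1, 55.1 and 75.2 CPM in injured libraries. Htr3a fell by 0.91 ± 0.21 on the log2 scale (edgeR adjusted p = 0.0338), a call lost without naive library 1 (adjusted p = 0.186), naive library 3 (0.0823), injured library 2 (0.155) or injured library 3 (0.0908).

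Pan-neuronal and neurofilament genes had 1 fall among 23 tested and no rise (median log2 change -0.20, 9 without overlap). Nefl, the light neurofilament chain, measured 4487, 4321 and 4084 CPM in the naive libraries and 3252, 3510.1 and 3294 CPM in the injured libraries, close groups that did not overlap. Nefl fell by 0.36 ± 0.08 on the log2 scale (edgeR adjusted p = 0.0337), a call lost without naive library 1 (adjusted p = 0.186), naive library 2 (0.125), injured library 1 (0.172), injured library 2 (0.0575) or injured library 3 (0.101). Nefm and Nefh, the medium and heavy chains, had log2 changes of -0.40 and -0.35 and did not pass the test (adjusted p = 0.104 and 0.13). DESeq2 called 5 members of the list, Nefl, Nefm, Nefh, Elavl3 and Rbfox3, against 289 of all 11625 genes tested. Of 29 synaptic vesicle and secretory granule genes 1 fell, none rose, the median was -0.22 and 13 had groups that did not overlap. Chga, chromogranin A of dense-core granules, fell from 123, 142 and 145 to 68.5, 75.6 and 78.7 CPM. Chga fell by 0.88 ± 0.17 on the log2 scale (edgeR adjusted p = 0.00814), a call lost without injured library 1 (adjusted p = 0.062).

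The falls with the lowest adjusted p lie mostly outside these lists. Nrn1, neuritin, a membrane-anchored protein that promotes neurite growth (chromosome 13, 36725622 to 36734477, minus strand), measured 740.1, 579.7 and 663 CPM in the naive libraries and 236, 421 and 298 CPM in the injured libraries, and its highest injured library was below its lowest naive one. Nrn1 fell by 1.05 ± 0.18 on the log2 scale (edgeR adjusted p = 0.0023). Tmem233, a transmembrane protein, was at 528, 562 and 458 CPM in naive and 279, 297 and 321 CPM in injured libraries. Tmem233 fell by 0.79 ± 0.13 on the log2 scale (edgeR adjusted p = 0.00211). Lrrc49, a leucine-rich repeat protein, was at 295, 323 and 277 CPM in naive and 196, 142 and 139 CPM in injured libraries. Lrrc49 fell by 0.91 ± 0.16 on the log2 scale (edgeR adjusted p = 0.00369). Tmem35a, the chaperone NACHO of nicotinic receptors, was at 355, 289.5 and 249 CPM in naive and 182, 160.3 and 162 CPM in injured libraries. Tmem35a fell by 0.83 ± 0.15 on the log2 scale (edgeR adjusted p = 0.00458). Jph3, a junctophilin that ties the endoplasmic reticulum to the plasma membrane, was at 197, 178 and 223 CPM in naive and 116, 93.5 and 121 CPM in injured libraries. Jph3 fell by 0.85 ± 0.16 on the log2 scale (edgeR adjusted p = 0.00558). These 5, with Scn1a and Etv1, are the 7 falls kept in all 6 fits without 1 library. The fit of the 6 input libraries alone called 6 falls in all.

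Each of the other falls lost its call in at least 1 of the 6 fits without 1 library, which have fewer samples. Wipf3, an actin regulator that binds WASP proteins, was at 120.2, 145 and 165 CPM in naive and 95.5, 57.7 and 52.5 CPM in injured libraries. Wipf3 fell by 1.07 ± 0.21 on the log2 scale (edgeR adjusted p = 0.0084) and lost the call without injured library 2 (adjusted p = 0.0572). Camk2b, the beta chain of CaM kinase II, was at 159, 108 and 128 CPM in naive and 80.7, 45.6 and 63.7 CPM in injured libraries. Camk2b fell by 1.06 ± 0.22 on the log2 scale (edgeR adjusted p = 0.012), a call lost without naive library 1 (adjusted p = 0.0931) or injured library 2 (0.0714). Zfp365 had a log2 change of -0.88 (adjusted p = 0.00892), a call lost without naive library 1 (adjusted p = 0.0826). Rassf5, a RAS effector, had -0.81 (adjusted p = 0.012), a call lost without naive library 2 (adjusted p = 0.0633) or injured library 2 (0.0587). Peli3, a ubiquitin ligase of the Pellino family, had -0.96 (adjusted p = 0.0127), a call lost without naive library 2 (adjusted p = 0.0761), injured library 1 (0.0846) or injured library 2 (0.0549). Gria2, the AMPA receptor subunit that limits calcium entry, was at 23.3, 50.8 and 21.8 CPM in naive and 1.76, 9.13 and 8.16 CPM in injured libraries. Gria2 fell by 2.32 ± 0.51 on the log2 scale (edgeR adjusted p = 0.0224), a call lost without naive library 2 (adjusted p = 0.148) or injured library 1 (0.072). Scx, the tendon factor scleraxis, was at 55.2, 15.1 and 27.6 CPM in naive and 12.2, 7.43 and 6.51 CPM in injured libraries, highest in naive library 1. Scx fell by 1.90 ± 0.43 on the log2 scale (edgeR adjusted p = 0.0279) and lost the call without naive library 1 (adjusted p = 0.228), injured library 2 (0.115) or injured library 3 (0.123). Without naive library 1 its log2 change was -1.29. Hapln4, a hyaluronan link protein of perineuronal nets, was at 30.6, 25.7 and 29.1 CPM in naive and 5.56, 7.75 and 11.6 CPM in injured libraries. Hapln4 fell by 1.77 ± 0.37 on the log2 scale (edgeR adjusted p = 0.015), a call lost without naive library 1 (adjusted p = 0.0622), injured library 1 (0.0923) or injured library 2 (0.0655). Arsb, the lysosomal arylsulfatase B, was at 35.2, 34.7 and 33.8 CPM in naive and 10.2, 18.4 and 6.62 CPM in injured libraries. Arsb fell by 1.56 ± 0.37 on the log2 scale (edgeR adjusted p = 0.0442), a call lost without naive library 1 (adjusted p = 0.123), naive library 2 (0.113), naive library 3 (0.0867), injured library 1 (0.165) or injured library 3 (0.163). Sertad4 had -1.31 (adjusted p = 0.0243), a call lost without naive library 1 (adjusted p = 0.0897), naive library 3 (0.065), injured library 1 (0.135) or injured library 3 (0.0612).

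**Figure D3:**
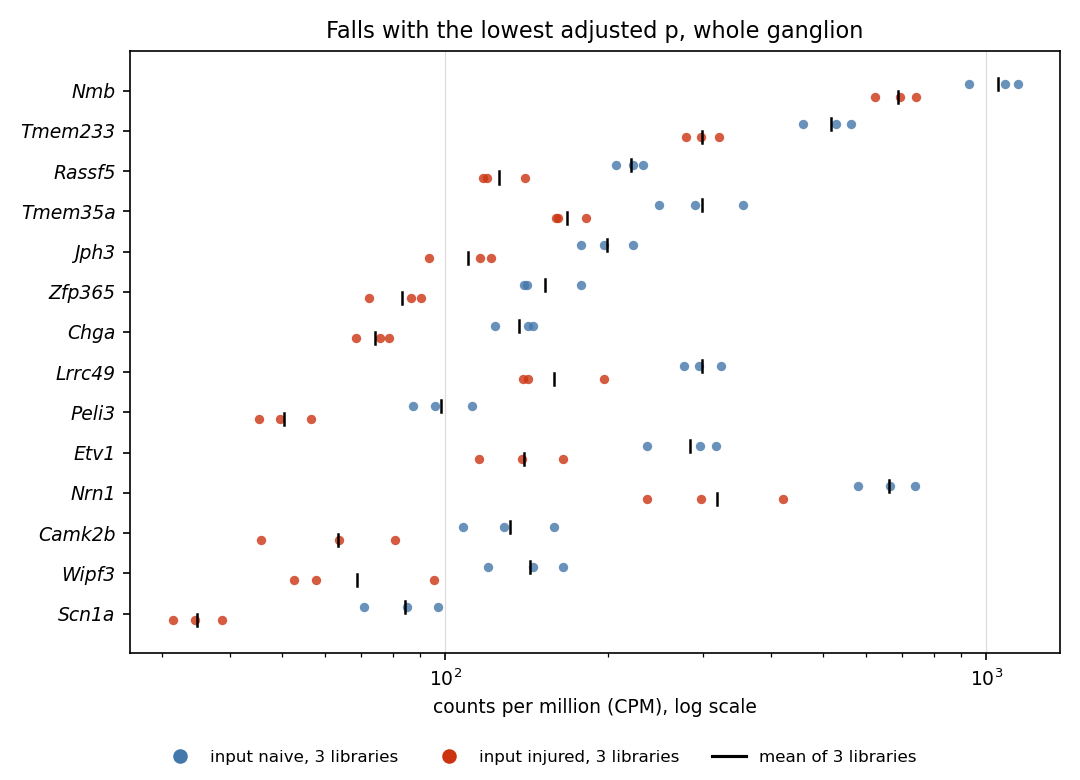
Level of 14 of the 15 falls with the lowest adjusted p in every input library (horizontal axis, CPM on a log scale), with 3 naive (blue) and 3 injured (red) libraries a gene and the mean of each group as a black bar. The groups do not overlap in any gene, but they lie close together in several, for example Wipf3 with 120.2 CPM in its lowest naive and 95.5 CPM in its highest injured library.

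None of the genes listed as markers of other cell types passed the test in either direction, in edgeR at an adjusted p under 0.05. At an unadjusted p under 0.05 there were 2 of the satellite glia, 0 of the Schwann cell, 1 of the macrophage, 0 of the fibroblast and 0 of the vessel markers, and DESeq2 called 1 of them, the satellite glial glutamine synthetase Glul, at 792, 669 and 836 CPM in naive and 1043, 1005 and 1013 CPM in injured libraries without overlap (edgeR log2 0.41, adjusted p = 0.102). Over all genes tested, 1261 of 11625 had an unadjusted p under 0.05 in edgeR, and DESeq2 called 289. The values below go with the neuronal changes above, and their part in the result was not tested. Of 15 tested satellite glia markers 0 were called, the median log2 change was 0.03 and 2 had groups that did not overlap. Their summed level was 5012 to 5144 CPM in the naive and 5008 to 5132 CPM in the injured libraries, with no counts tied to Gfap or Kcnj10, among others. S100b, a calcium-binding protein, had a log2 change of -0.19 (adjusted p = 0.548), Apoe, a lipid carrier, 0.03 (adjusted p = 0.991). Of 15 tested Schwann cell and myelin markers 0 were called and 0 had groups that did not overlap (median 0.09). They summed to 4530.2 to 5809.8 CPM in the naive and 4901 to 6141 CPM in the injured libraries, with no counts tied to Erbb3, Ngfr or Ugt8a, among others, and the myelin genes Mbp and Pmp22 had log2 changes of 0.09 and 0.15 (adjusted p = 0.967 and 0.809).

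Macrophage and leukocyte markers had the highest median of the cell-type lists, 0.66 on the log2 scale, with 17 of 22 tested members higher after crush and 9 without overlap, but 0 passed the test. Over all genes tested the median was 0.00 and 14.9% had groups without overlap. In a fit with the pool number as a replicate block, described at the end, 4 of these markers were called. The 22 markers summed to 988 to 1531 CPM in the naive and 1123 to 2025 CPM in the injured libraries, so the summed ranges overlapped. C1qa, a chain of complement C1q made by macrophages, was at 15.6, 25.1 and 36 CPM in naive and 39.5, 73.8 and 64.9 CPM in injured libraries (log2 1.22, adjusted p = 0.519). Mrc1, the mannose receptor, had a log2 change of 1.78 (adjusted p = 0.393), and Ctss, cathepsin S, 0.93 (adjusted p = 0.681). These 3 were chosen after their values were seen. The markers with most counts, the neutrophil genes S100a8 and S100a9, had 0.21 (adjusted p = 0.962) and 0.40 (adjusted p = 0.897). No counts were tied to Aif1, Cd68, Cd163, Itgam, Pf4, H2-Aa, Cd3e or Cd3g. Proliferation genes had the highest median of all lists, 1.01 over 15 tested members with 7 without overlap and 0 called, and summed to 1266 to 1403 CPM in the naive and 1637 to 1750.2 CPM in the injured libraries, without overlap. Stmn1, a stathmin of dividing cells and neurons, had 0.30 (adjusted p = 0.201), Pcna, the replication clamp, -0.25 (adjusted p = 0.846), and Mki67, the proliferation antigen Ki-67, 1.01 (adjusted p = 0.89). No counts were tied to Top2a, H1f5 or H2az1.

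The other background lists gave no calls in edgeR either, with 14 of the ribosomal protein, 3 of the proliferation, 2 of the interferon, 1 of the respiratory chain and 0 of the erythroid genes at an unadjusted p under 0.05. DESeq2 called Rpl18 and Stmn1 among them. Over all genes tested, 14.9% had groups without overlap and the median log2 change was 0.00. Of these 11625 genes, 1261 had an unadjusted p under 0.05 in edgeR, and DESeq2 called 289. Fibroblast and matrix markers had a median of 0.18 over 18 tested members with 2 without overlap and summed to 3714 to 4552 CPM in the naive and 4591 to 4978 CPM in the injured libraries, without overlap of the sums and with no counts tied to Bgn, Col1a1, Col5a1, Col5a2, Col6a1, Col6a2, Fn1 or Thbs1. Sparc, a matrix-binding protein, had a log2 change of 0.06 (adjusted p = 0.981) and Dcn, decorin, 0.30 (adjusted p = 0.84). Vessel markers had a median of 0.13 over 20 tested members with 3 without overlap and summed to 323 to 373 CPM in the naive and 314 to 441 CPM in the injured libraries, with Ly6c1 at -0.12 and Esam at -0.16, both endothelial surface proteins (adjusted p = 0.977 and 0.974). Erythroid markers, a measure of blood in the tissue, summed to 2262 to 3049 CPM in the naive and 2125 to 3188 CPM in the injured libraries over 3 tested members (median 0.07), with the beta-globins Hbb-bs at 0.07 (adjusted p = 0.985) and Hbb-bt at 0.11 (adjusted p = 0.973). Interferon and antigen-presentation genes had a median of 0.27 over 19 tested members, 0 of them without overlap, with Ifi27 at 0.18 (adjusted p = 0.842) and the class I chain H2-K1 at 0.42 (adjusted p = 0.419). Of 71 tested cytosolic ribosomal protein genes 65 were higher after crush, with a median of 0.20 and 13 without overlap, and Rps29 and Rplp1 had 0.15 and 0.17 (adjusted p = 0.784 and 0.756). Respiratory chain genes had a median of -0.03 over 81 tested members with 4 without overlap, and Atp5g3 and Cox7c had 0.06 and -0.05 (adjusted p = 0.945 and 0.968).

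**Figure D4:**
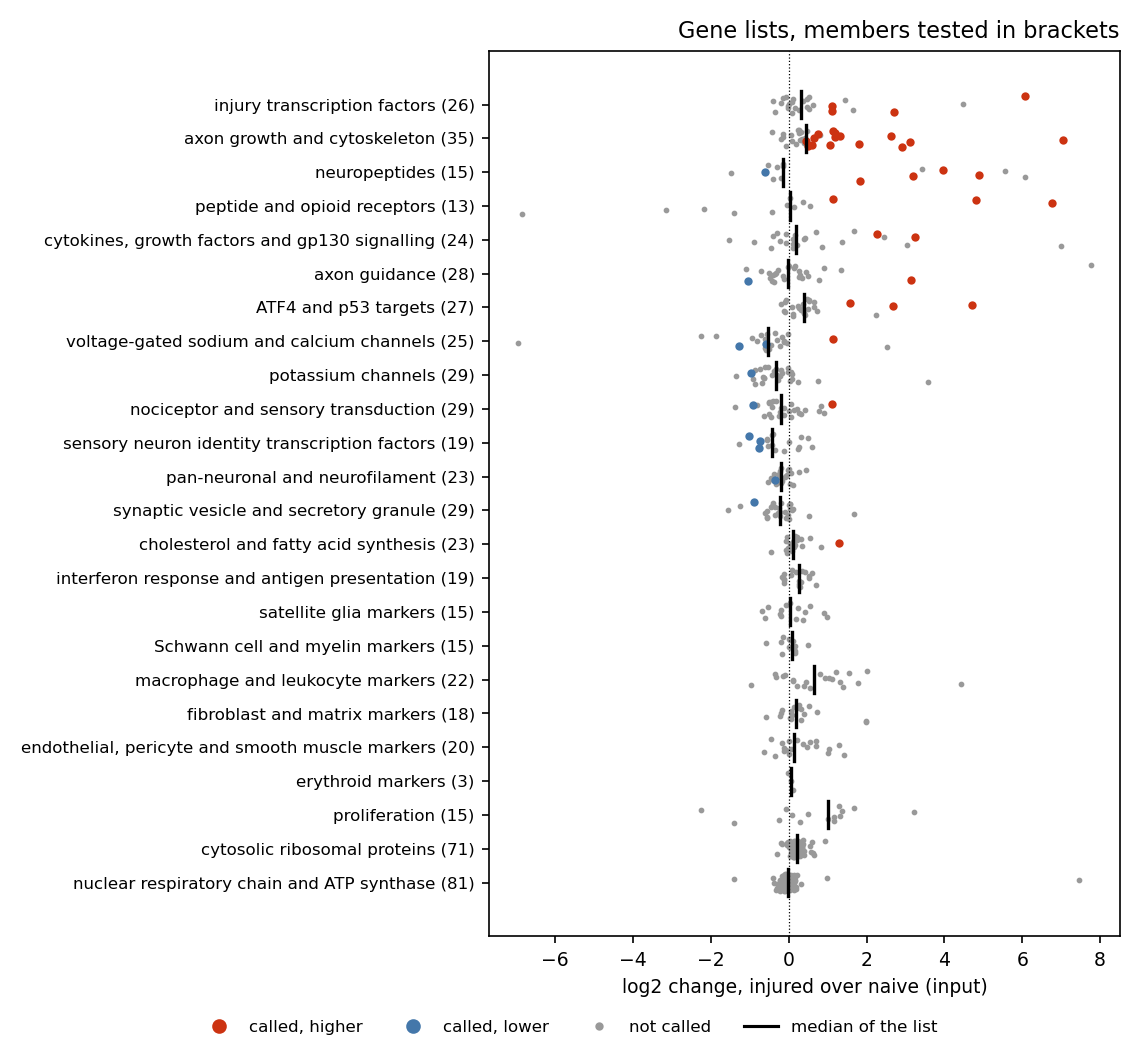
Log2 change after crush in whole-ganglion RNA (horizontal axis) for every tested member of the 24 gene lists (rows, with the number of members tested in brackets), 1 point a gene, called rises in red, called falls in blue, genes not called in grey, and the list's median as a black bar. The red points gather in axon growth and cytoskeleton, with 15 rises, and the markers of glia, leukocytes, fibroblasts and vessels hold no coloured point.

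RefSeq promoters, 250 bases before to 50 after the gene start, were at hand for 69 of the 103 rises and 25 of the 32 falls. They were searched on both strands for TGANTCA and for TGACGTCA, the CRE bound by ATF/CREB factors. TGANTCA takes in TGAGTCA and TGACTCA, the core bound by AP-1 dimers such as those of Jun. It also takes in TGATTCA and TGAATCA, so its matches, here called AP-1 letters, are not all that core. The AP-1 letters were in 8 of the 69 risen genes (11.6%), in 0 of the 25 fallen genes, in 6.11% of the 9413 tested genes with a promoter and in 8.97% of all 27025 promoters. The CRE letters were in 2 of the 69 risen (2.9%) and 2 of the 25 fallen genes (8.0%), in 3.53% of the tested genes and 2.03% of all promoters. These matches are letters in a window and not measured binding sites. The 3 promoters of risen genes with 2 AP-1 matches each are shown 5′ to 3′ on the strand of the gene, with the matches in capitals: Srxn1 (chr2:152105274-152105573, plus strand), Sprr1a (chr3:92485832-92486131, minus strand) and S100a11 (chr3:93520246-93520545, plus strand), all on GRCm38.p6. The matches begin 102 and 45 bases before the gene start in Srxn1, 146 and 116 bases before it in Sprr1a, and 136 and 38 bases before it in S100a11, which encodes a calcium-binding protein of the S100 family. Srxn1 is shown because it is the only promoter with a match among the 7 at hand of the 15 rises with the lowest adjusted p, and the other 2 were chosen after their values were seen.
Srxn1: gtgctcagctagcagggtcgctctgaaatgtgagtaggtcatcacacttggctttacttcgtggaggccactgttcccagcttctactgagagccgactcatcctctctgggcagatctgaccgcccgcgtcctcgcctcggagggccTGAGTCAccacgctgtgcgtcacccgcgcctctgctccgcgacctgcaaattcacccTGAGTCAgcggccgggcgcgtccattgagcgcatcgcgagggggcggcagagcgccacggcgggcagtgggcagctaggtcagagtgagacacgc
Sprr1a: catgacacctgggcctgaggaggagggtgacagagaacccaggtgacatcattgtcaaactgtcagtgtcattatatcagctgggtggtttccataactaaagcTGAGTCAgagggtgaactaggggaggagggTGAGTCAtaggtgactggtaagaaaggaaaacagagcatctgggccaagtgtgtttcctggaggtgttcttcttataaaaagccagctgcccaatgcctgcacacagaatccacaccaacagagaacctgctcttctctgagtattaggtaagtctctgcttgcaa
S100a11: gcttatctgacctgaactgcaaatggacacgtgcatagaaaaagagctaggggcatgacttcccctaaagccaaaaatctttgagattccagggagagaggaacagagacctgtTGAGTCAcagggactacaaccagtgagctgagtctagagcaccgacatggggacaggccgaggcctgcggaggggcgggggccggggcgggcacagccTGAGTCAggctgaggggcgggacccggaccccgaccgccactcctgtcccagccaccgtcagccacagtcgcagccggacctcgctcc
All matches in these 3 promoters read TGAGTCA, and the 2 in Sprr1a lie closest together. S100a11 itself was at 101, 81.2 and 94.1 CPM in naive and 296, 312 and 313 CPM in injured libraries. S100a11 rose by 1.73 ± 0.19 on the log2 scale (edgeR adjusted p = 9.02e-06).

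The same crush was read in the IP libraries, which hold RNA on the tagged ribosomes of sensory neurons. Input was taken from the same material before IP, so the 2 comparisons share animals and are not independent. 174 of the 11625 genes (1.5%) were called there. All 103 input rises and all 32 input falls had the same sign of change in IP, and 85 of the rises and 9 of the falls were also called. For Atf3 the log2 change was 6.07 ± 0.33 in input and 5.39 ± 0.32 in IP, and for Gal 3.96 ± 0.28 and 4.97 ± 0.30. Scn1a had -1.28 ± 0.22 in input and -0.59 ± 0.22 in IP, where it was not called. The test of the difference between the 2 effects called 0 of 11625 genes (0.0%), with 400 genes at an unadjusted p under 0.05, while DESeq2 called 14. Neither fit had a term for the material that input and IP libraries share. The lowest p values belonged to Clic4, Prkd3, Mcm3, Cdkn1a and Ppfibp2, with adjusted p of 0.409, 0.409, 0.606, 0.735 and 0.793. Clic4, an intracellular chloride channel protein, had 245, 156 and 165 CPM in the naive libraries and 274, 257 and 247 CPM in the injured libraries, a log2 change of 0.46 ± 0.23, and 28, 41.2 and 22.5 CPM in IP naive and 102, 169 and 124 CPM in IP injured libraries, a log2 change of 2.11 ± 0.24. Cdkn1a rose in both, by 1.57 ± 0.13 in input and 2.39 ± 0.14 in IP, from 94.3, 95.3 and 93 CPM in IP naive libraries, below the 185, 180.0 and 169 CPM of input. Prkd3, Mcm3 and Ppfibp2 had 0 counts in all IP naive libraries.

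**Figure D5:**
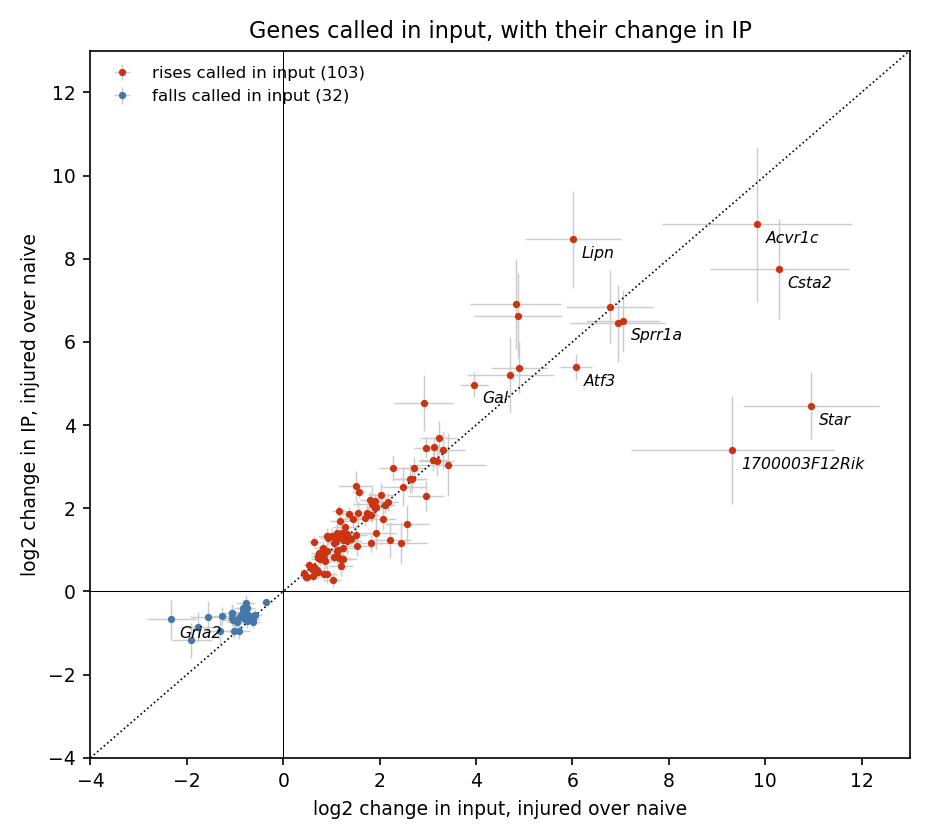
Log2 change after crush in IP (vertical axis) against that in input (horizontal axis) for the 103 rises (red) and 32 falls (blue) called in input, with standard errors as grey bars and a dotted line of equal change. All red points lie above 0 on both axes and all blue points below 0, and the widest errors belong to genes with 0 counts in naive libraries.

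Taken site by site, 90 of 46229 sites were called (0.195%), 78 rises (0.169%) and 12 falls (0.026%). Site levels are CPM of the counts at all sites and are on another scale than gene levels. 66 of the called sites lay in 57 called genes and 24 did not, and 25 lay in repeats, where reads can have several alignments. Only 21 sites were called in all 6 fits without 1 library. Within Sox11, a site 1533 bases before the annotated end (chr12:27335789-27335814, minus strand) was at 7.56, 9.24 and 8.66 CPM in the naive and 49.3, 56.8 and 39.6 CPM in the injured libraries (log2 change 2.51 ± 0.26, edgeR adjusted p = 0.00164). Within Gap43, a site 339 bases before the end (chr16:42248872-42248910, minus strand) was at 134, 111 and 110.0 CPM in the naive and 319, 305 and 301 CPM in the injured libraries (log2 change 1.38 ± 0.14, edgeR adjusted p = 0.00164). Sez6l, a gene of the seizure-related 6 family, had its called site 25 bases before the end (chr5:112419164-112419189, minus strand) at 2.65, 5.36 and 3.73 CPM in the naive and 26.8, 34.2 and 23.6 CPM in the injured libraries (log2 change 2.84 ± 0.35, edgeR adjusted p = 0.00602). Outside genes, a B2 repeat site at chr2:79124701-79124726 on the plus strand was at 21.6, 28.1 and 9.63 CPM in the naive and 153, 220.4 and 209 CPM in the injured libraries (log2 change 3.29 ± 0.37, edgeR adjusted p = 0.00311). Another B2 site at chr11:3616638-3616663 on the plus strand was near 0 in naive ganglia, at 1.89, 0.194 and 0.298 CPM in the naive and 45.6, 43.7 and 38.4 CPM in the injured libraries (log2 change 5.79 ± 0.73, edgeR adjusted p = 0.00667). These 5 sites were called in each of the 6 fits without 1 library. Of the falling sites named by rule, 1 outside genes at chr1:44003202-44003249 on the plus strand went from 3.97, 5.56 and 2.09 CPM to 0 in all injured libraries, at least 49.7-fold lower (adjusted p = 0.0141), a call lost without naive library 1 (adjusted p = 0.0599), injured library 2 (0.0591) or injured library 3 (0.0574).

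Whether genes shifted between their own transcript ends was tested in 5345 genes with 15945 sites. No gene was called (0.0%) in edgeR's test of site use, 439 genes had an unadjusted p under 0.05, the lowest adjusted p was 0.401, and no other tool was run. In simulated data this test called 18.8% of the genes in which a site was moved by a log2 change of 2. The absence of calls therefore does not show that transcript ends stayed the same. Among the 8 genes with the lowest p was Srsf3, a splicing factor, whose site 36 bases before the annotated end took 1.67, 1.02 and 0.18% of its counts in naive and 4.64, 6.45 and 8.32% in injured libraries, without overlap (adjusted p of the gene 0.414). Another was Bnip2, whose site 4322 bases before the end took 0% in naive and 6.64, 7.42 and 5.29% in injured libraries (adjusted p of the gene 0.414). Gatc, a subunit of the mitochondrial glutamyl-tRNA amidotransferase, had a site 865 bases before its end with 53.1, 26.0 and 72.1% in naive and 0% in injured libraries (adjusted p of the gene 0.401). The others, Gna14, Zmiz1, 1700025G04Rik, Ubxn7 and Gsr, also did not pass the test.

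B2 elements, short interspersed repeats transcribed by RNA polymerase III, took 7.93, 11.2 and 10.2% of all counts in naive and 13.4, 15.4 and 16.1% in injured libraries. The groups did not overlap, with means of 9.78 ± 1.67% and 15 ± 1.39% (SD, n = 3 each; two-sided exact permutation test, p = 0.1, the smallest that 3 against 3 allow). As a family, B2 had a log2 change of 0.60 ± 0.25 with an edgeR adjusted p of 0.432, and 0 of 179 repeat families were called (0.0%), with 16 at an unadjusted p under 0.05 and 2 called by DESeq2. With the pool number as a replicate block, described at the end, B2 was called (edgeR adjusted p = 0.0261). Alu elements had a log2 change of 0.02 (adjusted p = 0.993) and ribosomal RNA repeats -0.30 (adjusted p = 0.647). Over the 13139 tested B2 sites the median log2 change was 0.70, with 19 rises and 0 falls, against -0.12 over the 22650 sites outside repeats, with 54 rises and 11 falls. The 19 need not be separate events, since some had nearly the same levels in every library. The injured libraries had 23.2, 30.5 and 26.6 CPM at chr9:99687423-99687448 and 23.3, 30.5 and 27.3 CPM at chr5:115630180-115630205. Whether the same reads were counted at several sites was not tested. Counts on the strand opposite to a gene, or in a gene of unknown strand, went from 4.64, 5.68 and 5.22% to 6.30, 6.99 and 6.99% (exact permutation p = 0.1), while counts at annotated 3′ ends took 48.5 ± 0.978% and 46.7 ± 1.46% (exact permutation p = 0.3).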

How the data were processed

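The authors deposited 1 table of whole-number read counts per genomic interval and library, in 2 blocks of chromosomes, with no strand column and with 17 further columns of unnamed samples that were not used. Per the submitters' processing notes, bcl2fastq 2.17, STAR and HTSeq were used on GRCm38 (mm10), and the labels' protocols name RNeasy columns and QuantSeq REV libraries. Aligner settings, the treatment of reads with several alignments, and whether positions count from 0 or 1 are not given in the sources used here.

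20 damaged lines of 178451 were left out. The first block was read as the minus and the second as the plus strand, because 1071 of its well-covered sites near gene ends lay by minus genes and 21 by plus genes, against 10 and 1109 in the second. Genes came from the RefSeq table, whose promoters gave the strand of 27025 of 34614 genes. The counts gave it for 2308 more (10-fold excess, at least 60 counts), a reading that matched RefSeq in 99.5% of 8870 genes where both could be had. Sites in a gene or within 200 bases after it were tied to it, 78.6% of all counts. Those outside repeats or at the annotated end were summed, 74.0% of counts. An end site with a repeat label held 85.2% of the input counts of Srxn1, 62.2% of those of Cdkn1a and 80.4% of those of Peli3. An end site lies within 100 bases of the annotated end.

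Library totals ran from 10045178 to 18687123 over the 12 libraries. Pairs of libraries within a group differed by 17.7 to 46.9 in chi-square per degree of freedom, so none was counted as a duplicate. All 12 libraries in 4 groups were fitted together with edgeR 4.0.16 (R 4.3.3, filterByExpr, TMM, glmQLFit), since they share an estimate of the spread, and adjusted p under 0.05 was called. Single values were compared with exact permutation tests (scipy 1.17.1). Site use was tested with diffSpliceDGE. The scripts were tested on simulated data. Log2 changes of 1 and 2 put into the injured input libraries were called in 28% and 69.7% of genes and in 1% and 20.2% of sites. The labels do not say how the pools relate to each other, so p-values measure the spread between pools only, and that spread may be partly technical. Alternatives were DESeq2 1.42.0, other scaling factors and filters, the 6 input libraries alone, a replicate block, other site sets and leaving out each library.

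The comparison, the gene lists and the members were chosen with earlier results of these data known, so a list's count is not independent evidence of its direction. Named genes are the 15 rises and 15 falls with the lowest adjusted p, the 8 of each with the largest change, up to 4 called members of each list (or the 2 highest uncalled ones), and the 5 with the lowest interaction p. Sites, site use and families followed like rules. Every other gene named was chosen after its values were seen. A few genes that these rules or lists hold are not reported here.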

Additional observations from a re-analysis of the deposited data

How the results depend on the processing

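Against the 103 rises and 32 falls called by edgeR over all 12 libraries, the replicate block gave 304 calls (191 rises, 113 falls; 132 shared) and DESeq2 289 (184 rises, 105 falls; 131 shared). The 6 input libraries alone gave 78 (72 rises, 6 falls; 76 shared), and sites at annotated 3′ ends alone 89 (75 rises, 14 falls; 83 shared). RLE factors, upper-quartile factors, no filter, a filter of 5 CPM and all tied sites gave 136, 134, 145, 149 and 159, and leaving out each library 104 to 130. No named gene changed direction under these alternatives. Of the 87 named genes, 63 of them called, 25 lost their call with the 6 input libraries alone, 18 with end sites alone, where some were not tested, and between 8 and 16 without 1 library. The cause was not tested.

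For sites (78 rises, 12 falls), DESeq2 called 863 (577 rises, 286 falls), the fit with the replicate block 51 (49 rises, 2 falls), and fits without 1 library 26 to 55. The 6 input libraries alone gave 87 (86 rises, 1 fall) and a filter of 1 CPM 111 (88 rises, 23 falls). For site use (0 called), all tied sites gave 2 (Agbl3 and Pik3r1), and fits without 1 library 0 to 3: Ncor1, Agfg1 and Ints2 without naive library 1, and Etv1 without injured library 2. For repeat families (0 called), DESeq2 gave 2, the 6 input libraries alone 1, and the replicate block 2, one of which was B2 (log2 change 0.61, adjusted p = 0.0261). For the difference between input and IP (0 called), DESeq2 gave 14, and fits without 1 library 0 to 2, Clic4 (adjusted p = 0.0364) and Gldn without IP naive library 2. The other alternatives gave totals of calls within 1.5 times those reported. Fits without 1 library have fewer samples by construction.

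The labels number the pools 1 to 3 in each group without saying that a number marks shared animals. With that number as a replicate block, 304 genes were called, among them 4 macrophage and leukocyte markers (C1qa, Ctss, Laptm5 and Mrc1), Glul of the satellite glia and Dcn of the fibroblast markers. Same-numbered naive and injured libraries deviated from their group means with correlations of 0.032, 0.042 and 0.077, each under 0.1, so the numbers were not taken as pairs. Every library correlated best with the library of its own number, a hint from the data and not from the design. Depth limits genes at a few counts, where naive libraries at 0 give a lower bound of the fold only.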
